A study of Homo sapiens with 24 samples.

Results

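LNCaP cells treated with dihydrotestosterone (DHT) for 24 h were compared with LNCaP cells treated with enzalutamide for 24 h, an androgen against an antiandrogen at the same time. The members are the libraries whose labels give one of these treatments and this time, 2 with DHT and 2 with enzalutamide, which are 4 of the 24 samples of the series. LNCaP is an established human prostate adenocarcinoma line that responds to androgen. The study asked how widely enzalutamide itself changes transcription. Cells were kept for 3 days in medium with charcoal-stripped serum, which holds little steroid, and then received 10 nM DHT, 10 μM enzalutamide or vehicle. Poly(A) RNA was sequenced, and further libraries of vehicle and of both ligands at 4 h served to estimate the spread, 10 libraries in 5 conditions in all. The labels give no time for vehicle and count 4 vehicle replicates, but 3 of the 4 deposited vehicle columns carry replicate number 1, and these were summed into vehicle replicate 1. The labels call the replicates biological without saying what separates them, so p-values measure the spread between these libraries. Libraries from the siRNA experiment of the series were not used here.

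The DHT libraries held 56454994 (replicate 1) and 40281721 (replicate 2) estimated counts, and the enzalutamide libraries held 49986088 and 49029465. Estimated counts are reads assigned to genes by the authors' software, which can split a read between genes. Levels are given below as CPM, the counts of a gene relative to the total of its library after scaling by trimmed mean of M values (TMM). The replicates of each ligand differed by more than counting noise. The mean chi-square per gene was 4.36 for DHT and 2.22 for enzalutamide, where 1 stands for counting noise alone. Among the further libraries it was 9.32 for enzalutamide at 4 h, 1.98 for DHT at 4 h and 4.93 for vehicle. In the deposited tables the column of DHT replicate 1 carries another prefix than the columns of DHT replicate 2 and both enzalutamide libraries, which share one. What the prefix marks is not given in the sources used here, so the comparison within the shared prefix, without DHT replicate 1, is given beside the overall counts.

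Markers of luminal prostate cells were abundant in sum under both ligands. The 10 luminal markers summed to 6990 and 7054 CPM with DHT and to 4741 and 4752 CPM with enzalutamide. Among them KLK2 was low with enzalutamide, at 157 and 153 CPM with DHT and 2.56 and 2.14 CPM with enzalutamide. Markers of other cell types had far lower sums. The 5 leukocyte markers summed to 2.91 and 2.80 CPM with DHT and 1.44 and 1.63 CPM with enzalutamide, nearly all of it CD68. The 4 fibroblast markers summed to 14.9 and 16.6 CPM with DHT and 26.2 and 29.2 CPM with enzalutamide, nearly all from COL1A1, with COL1A2 at 0 in the 4 libraries. The 3 endothelial markers summed to 21.4 and 20.7 CPM with DHT and 9.05 and 8.47 CPM with enzalutamide, nearly all from VWF, with PECAM1 and CDH5 at 0 to 3 counts in each library. The 3 basal markers summed to 0.439 and 0.484 CPM with DHT and 0.0394 and 0.0403 CPM with enzalutamide, led by KRT14 with DHT. The part of these genes in the results below was not tested.

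DHT is the potent androgen of the prostate, and in luminal cells it drives genes of secretion, metabolism and growth. Pioneer factors such as FOXA1 and GATA2 open the chromatin at many of these genes, where coactivators and Mediator are then recruited. Enzalutamide is an antiandrogen used to treat advanced prostate cancer, and resistance to it is a main problem of that treatment.

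The comparison asks which transcripts differ between androgen and antiandrogen treatment after a day. Prostate secretory genes, genes of DNA replication and mitosis, and genes of cholesterol and fatty acid synthesis were mostly higher with DHT, while most targets of the stress-response factor ATF4 were higher with enzalutamide. Of 15555 genes tested, 1793 (11.5%) were called, with an adjusted p below 0.05 and a difference of over 2-fold, 850 (5.46%) higher and 943 (6.06%) lower with DHT. More calls were lower than higher here, but not with DESeq2 (809 higher and 740 lower), the stricter filter on low counts (676 and 593), the fold itself tested against 2 (570 and 322) or without enzalutamide replicate 1 (892 and 890). Over 4-fold differences numbered 246 higher and 162 lower among these calls. The median log2 fold change (DHT minus enzalutamide, positive when higher with DHT) over all tested genes was -0.03. Without DHT replicate 1, 1702 genes were called (841 higher and 861 lower), of which 1494 were among the 1793. An adjusted p below 0.05 with no limit on fold was reached by 10092 genes (64.9%), 31.3% of all tested genes higher and 33.6% lower with DHT, and the counts of list members below stand beside these shares. Passes higher with DHT were the more numerous with RLE factors (5164 higher and 4874 lower), DESeq2 (4666 and 4174), the 4 libraries of 24 h alone (5258 and 5202) and without any 1 of these 4 libraries, and the fewer with library size alone (4203 and 6012). Both libraries of one ligand lay above both of the other for 12941 genes (83.2%), so that groups without overlap were the usual state. In bulk RNA, fewer cells of a kind and less RNA per cell cannot be told apart, which applies to every difference below.

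**Figure D1:**
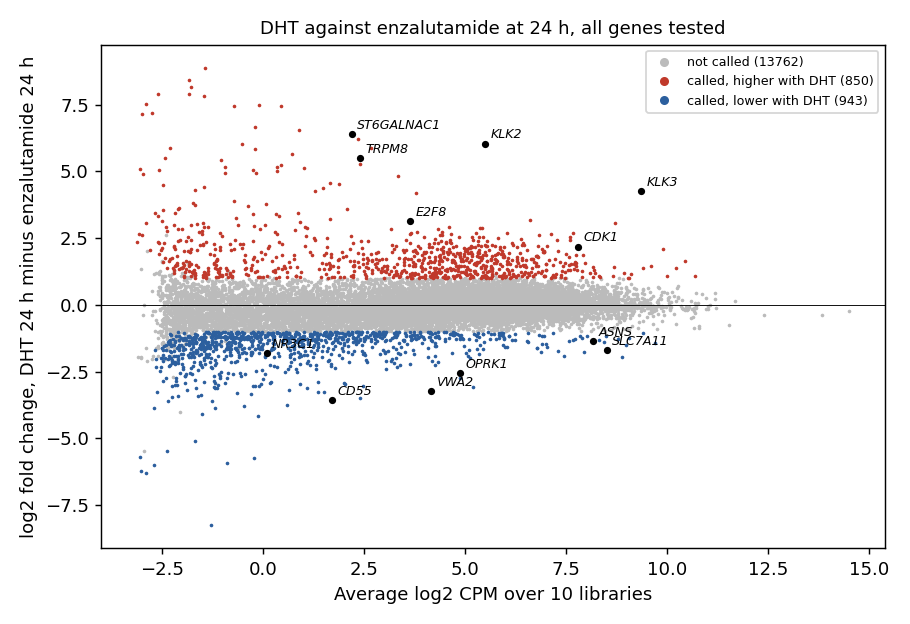
Each point is 1 of 15555 tested genes, with the average log2 CPM over 10 libraries on the x axis and the log2 fold change of DHT 24 h minus enzalutamide 24 h on the y axis. Red points (850) were called higher and blue points (943) lower with DHT, grey points were not called, and black points mark some of the genes named in the text, with KLK2 at 6.04 and CD55 at -3.58.

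The kallikreins and other secreted or surface proteins of the prostate were mostly higher with DHT. Of 18 listed members 17 were tested, and 12 were higher and 5 lower with DHT at an adjusted p below 0.05, against 31.3% and 33.6% of all tested genes. All 12 of the higher members differed by over 2-fold (70.6% of the list, against 5.46% of all tested genes), as did 0 of the lower ones (0 by edgeR at an unadjusted p below 0.05 and 0 by DESeq2), and the list's median log2 fold change was 2.12 against -0.03 over all tested genes. KLK3, which encodes prostate-specific antigen, stood at 2095 and 2139 CPM with DHT and at 109 and 111 CPM with enzalutamide, beside 259 and 254 CPM with vehicle. Both DHT libraries lay far above both enzalutamide libraries, 19.3-fold by the edgeR quasi-likelihood fit (log2 fold change 4.27 ± 0.0578 (SE), adjusted p = 2.25e-14). KLK2, a related protease that activates the KLK3 product, had 157 and 153 CPM with DHT and 2.56 and 2.14 CPM with enzalutamide. The KLK2 difference was 65.7-fold (log2 fold change 6.04 ± 0.11 (SE), adjusted p = 1.75e-13, edgeR). TMPRSS2, the surface serine protease whose promoter is often fused to ERG in prostate tumours, was at 379 and 383 CPM with DHT and 57.9 and 61.1 CPM with enzalutamide. It was higher in both DHT libraries, 6.4-fold (log2 fold change 2.68 ± 0.0399 (SE), adjusted p = 3.86e-14, edgeR).

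Channels and membrane proteins were on the same list. TRPM8, the cold and menthol channel, had 18.2 and 17.9 CPM with DHT and 0.394 and 0.403 CPM with enzalutamide. CHRNA2, a nicotinic acetylcholine receptor subunit, had 25.8 and 26.4 CPM with DHT and 0.355 and 0.524 CPM with enzalutamide. Both were high in each DHT library and low in each enzalutamide library, at log2 fold changes of 5.49 ± 0.18 and 5.88 ± 0.18 (SE). STEAP4, a metalloreductase, had 182 and 126 counts with DHT and 1 and 2 with enzalutamide. As a ratio of summed CPM the STEAP4 difference was 110-fold, with an exact 95% interval of 37.2 to 535 that covers counting error only. In the other direction, STEAP2, its relative, had 1186 and 1124 CPM with DHT and 2097 and 2154 CPM with enzalutamide. FOLH1, the prostate-specific membrane antigen, had 1191 and 1153 CPM with DHT and 2118 and 2119.9 CPM with enzalutamide. Enzalutamide libraries were thus the higher ones for both of these surface proteins, by 1.84-fold and 1.81-fold (edgeR adjusted p = 1.88e-08 and 1.98e-11).

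The KLK3 promoter is shown because KLK3 is a well-known androgen target, with an androgen response element that holds the half-site AGAACA. The 300 bases run from 250 before to 50 after the RefSeq start site (GRCh38.p14, chr19:50854665-50854964 on the plus strand), with the half-site in capitals, and the match begins at position -170 relative to the start.
KLK3: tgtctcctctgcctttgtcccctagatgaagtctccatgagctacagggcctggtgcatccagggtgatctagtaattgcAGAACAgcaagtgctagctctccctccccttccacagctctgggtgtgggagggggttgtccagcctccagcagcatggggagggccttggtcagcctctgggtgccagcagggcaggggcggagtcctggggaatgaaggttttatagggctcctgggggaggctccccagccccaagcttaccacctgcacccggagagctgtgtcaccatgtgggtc
On either strand AGAACA was in 14.9% of all 27305 RefSeq promoters of this length. Promoters were at hand for 13 of 18 members of the prostate list and 68 of 87 members of the androgen response list, which is under 80% of each, so the check of the half-site over these lists is void. Among the promoters at hand it was in 2 of the 13 (15.4%) and 4 of the 68 (5.88%), and the KLK3 match describes that promoter alone.

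The wider androgen response list had 87 members, all tested. Of these, 68 (78.2%) were higher and 9 (10.3%) lower with DHT, against 31.3% and 33.6% of all tested genes. By over 2-fold, 37 (42.5%) were higher and 1 (1.15%) lower, against 5.46% and 6.06%. The list's median log2 fold change was 0.79. FKBP5, a co-chaperone of steroid receptors, stood at 348 and 344 CPM with DHT and 66.2 and 62.8 CPM with enzalutamide. It was higher in both DHT libraries, 5.36-fold (edgeR adjusted p = 4.55e-14). The largest fall on the list was that of HSD17B14, a hydroxysteroid dehydrogenase, with 1.26 and 1.30 CPM with DHT and 2.72 and 3.17 CPM with enzalutamide (log2 fold change -1.20 ± 0.19 (SE), adjusted p = 8.10e-05, edgeR).

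The 12 largest rises with DHT among called genes whose ligand groups did not overlap and whose average log2 CPM reached 1 included KLK2, CHRNA2 and TRPM8. Absence of overlap was part of this choice, here and for the falls below. The largest of the 12 was ST6GALNAC1, a sialyltransferase that makes the sialyl-Tn antigen, with 18.7 and 18.9 CPM with DHT and 0.256 and 0.181 CPM with enzalutamide. It was 84.6-fold higher in the DHT libraries (log2 fold change 6.40 ± 0.16 (SE), adjusted p = 1.43e-12, edgeR). F5, which encodes coagulation factor V, had 37.1 and 38.3 CPM with DHT and 1.42 and 1.19 CPM with enzalutamide. HPGD, which inactivates prostaglandins, had 12.7 and 12.2 CPM with DHT and 0.592 and 0.464 CPM with enzalutamide. These differences were 28.8-fold and 23.5-fold with DHT high. ADAM7, of the ADAM family of membrane proteins, had 13.3 and 12.4 CPM with DHT and 0.592 and 0.504 CPM with enzalutamide. MYBPC1, a myosin-binding protein of slow muscle, had 11.2 and 10.6 CPM with DHT and 0.513 and 0.545 CPM with enzalutamide. DHT was the higher by 23.4-fold and 20.6-fold. The remaining 4 were the long non-coding RNA LINC01297 (log2 fold change 5.13), the zinc finger pseudogene ZNF812P (5.28) and TRIM49D1 (6.22) with TRIM49D2 (4.27). The last pair are near-identical copies that share reads, and pseudogene reads can belong to the parent gene, so the identity of these signals is uncertain.

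The 12 largest falls, where enzalutamide libraries were the high ones, were led by CD55. CD55, which protects cells from complement, had 0.842 and 0.663 CPM with DHT and 9.29 and 9.05 CPM with enzalutamide, beside 1.47 and 1.5 CPM with vehicle. It was 12-fold higher with enzalutamide (log2 fold change -3.58 ± 0.14 (SE), adjusted p = 9.00e-11, edgeR). COL16A1, a collagen chain, had 1.04 and 1.10 CPM with DHT and 10.8 and 13.3 CPM with enzalutamide. VWA2, a basement membrane protein, had 3.13 and 2.93 CPM with DHT and 27.3 and 29.7 CPM with enzalutamide. MATN2, a matrilin of the matrix, had 0.439 and 0.612 CPM with DHT and 4.63 and 5.24 CPM with enzalutamide. The levels with DHT were the lower, 11.3-fold for COL16A1, 9.36-fold for VWA2 and 9.58-fold for MATN2. Vehicle stood at 4.43 and 3.88 CPM for COL16A1, 19.2 and 19.8 CPM for VWA2 and 2.87 and 2.87 CPM for MATN2. MAN1A1, a Golgi mannosidase that trims N-glycans, had 6.79 and 7.03 CPM with DHT and 56.7 and 59.4 CPM with enzalutamide. SI, the intestinal disaccharidase sucrase-isomaltase, had 6.11 and 5.73 CPM with DHT and 39.4 and 40.6 CPM with enzalutamide. These differences were 8.41-fold and 6.72-fold with enzalutamide high. ADM, the precursor of the vasodilator adrenomedullin, had 0.75 and 0.969 CPM with DHT and 6.86 and 6.21 CPM with enzalutamide, 7.72-fold apart. Vehicle levels were 42.8 and 39.5 CPM for MAN1A1, 32.1 and 32.7 CPM for SI and 5.53 and 5.33 CPM for ADM. The other 5 were FAM131B (-3.28), the potassium channel KCNU1 (-3.10), the calcium-binding membrane protein MCTP1 (-3.05), phospholipase D1 (PLD1, -2.94) and the proline transporter SLC6A20 (-2.90), as log2 fold changes. For SLC6A20 the value was -3.89 without DHT replicate 1, a fold 1.99 times as large. Vehicle lay between the ligands for FAM131B, KCNU1 and MCTP1. PLD1 had 5.57 and 4.62 CPM with vehicle and 5.60 and 5.49 CPM with enzalutamide. SLC6A20 was higher with vehicle (3.80 and 3.25 CPM) than with enzalutamide (2.58 and 2.80 CPM).

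**Figure D2:**
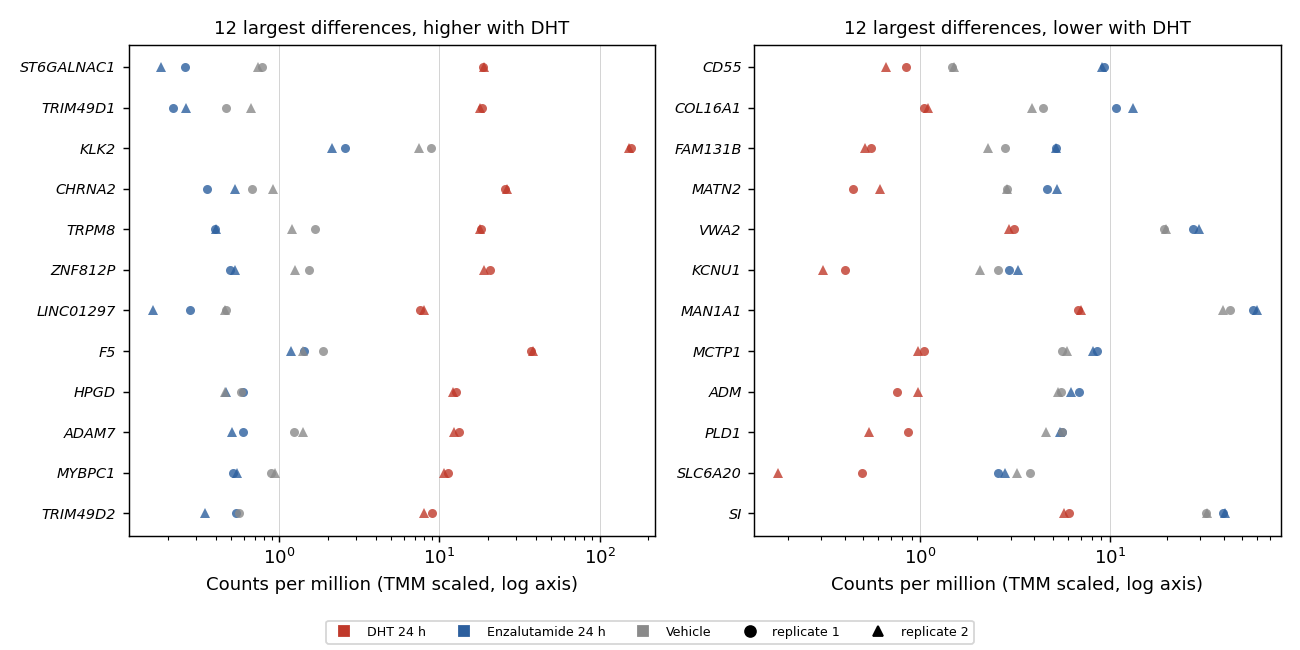
CPM on a log axis for the 12 largest rises (left) and 12 largest falls (right) with DHT against enzalutamide at 24 h, 1 symbol per library, with colour for the treatment and shape for the replicate. Red DHT symbols lie to the right of blue enzalutamide symbols for each gene on the left and to the left of them on the right, vehicle is in grey, and the value of 0 for TRIM49D2 in vehicle replicate 2 cannot be drawn on this axis.

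Of 14 listed androgen-repressed genes 13 were tested. Of these, 9 (69.2%) were lower and 3 (23.1%) higher with DHT, against 33.6% and 31.3% of all tested genes. The list's median log2 fold change was -0.93. OPRK1, the kappa opioid receptor, had 7.17 and 8.21 CPM with DHT and 44.2 and 45.4 CPM with enzalutamide. It was lower in both DHT libraries by 5.87-fold (log2 fold change -2.55 ± 0.0721 (SE), adjusted p = 3.70e-12, edgeR). UGT2B28, on the same list and among the enzymes that glucuronidate steroids, went the other way, with 25.9 and 24.6 CPM with DHT and 3.41 and 3.55 CPM with enzalutamide. Of the 7 UGT2B genes, 4 (57.1%) were higher and 2 (28.6%) lower with DHT, against 31.3% and 33.6% of all tested genes. The count of higher UGT2B genes was 3 with library size alone or with DESeq2. The lower ones were led by UGT2B15, at 199 and 185 CPM with DHT and 381 and 375 CPM with enzalutamide. UGT2B genes are near copies of one another, and how reads were divided among them is uncertain. Among 20 steroid-metabolizing enzymes 13 were tested, 5 (38.5%) higher and 4 (30.8%) lower, against 31.3% and 33.6% of all tested genes. Only 1 was lower with the stricter filter on low counts. CYP11A1, which starts steroid synthesis from cholesterol, had 93 and 84 counts with DHT and 3 in each library with enzalutamide, a ratio of 31.5 (exact 95% interval 14.2 to 87.0, counting error only). AKR1C3, which reduces androgen precursors and resembles its neighbours AKR1C1 and AKR1C2 closely, had 5 and 3 counts with DHT and 16 in each library with enzalutamide, a ratio of 3.74 with enzalutamide high (1.69 to 9.41).

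Among steroid receptors and pioneer or lineage factors, 18 of 21 were tested, 6 (33.3%) higher and 9 (50.0%) lower with DHT, against 31.3% and 33.6% of all tested genes, with a median log2 fold change of -0.08. The count of lower members was 6 without DHT replicate 1 or without enzalutamide replicate 1. NR3C1, the glucocorticoid receptor, was low in all libraries, with 0.531 and 0.331 CPM with DHT, 1.46 and 1.67 CPM with enzalutamide and 0.479 and 0.609 CPM with vehicle. Both enzalutamide libraries were above both DHT libraries, 3.51-fold (log2 fold change -1.81 ± 0.24 (SE), adjusted p = 2.20e-05, edgeR). FOXA1, the forkhead pioneer factor, had 422 and 421 CPM with DHT and 540.0 and 544 CPM with enzalutamide. GATA2, the zinc finger pioneer factor, had 178 and 187 CPM with DHT and 201 and 203 CPM with enzalutamide. Enzalutamide was the higher in both libraries for each gene, and the differences were small, -0.36 ± 0.0274 and -0.15 ± 0.0476 (SE) on the log2 scale. That of GATA2 passed the edgeR test with an adjusted p of 0.0163 and missed it without DHT replicate 1 (0.156), enzalutamide replicate 1 (0.0765) or enzalutamide replicate 2 (0.101).

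Mediator links transcription factors to RNA polymerase II. All 31 subunits and kinase-module members were tested, 14 (45.2%) higher and 6 (19.4%) lower with DHT, against 31.3% and 33.6% of all tested genes, and 0 by over 2-fold, with a median log2 fold change of 0.08. The count over 2-fold was also 0 by edgeR at an unadjusted p below 0.05 and 0 by DESeq2. With library size alone, 11 were higher and 8 lower. MED1, the subunit that contacts nuclear receptors, had 152 and 150.0 CPM with DHT and 143 and 142 CPM with enzalutamide. MED14, a backbone subunit, had 61.0 and 54.4 CPM with DHT and 61.3 and 62.3 CPM with enzalutamide. The MED1 and MED14 differences, 0.08 and -0.09 on the log2 scale, did not pass (edgeR adjusted p = 0.0785 and 0.167). MED1 passed with RLE factors (0.0324), DESeq2 (0.0413) or the 4 libraries of 24 h alone (0.0223), and MED14 with library size alone (0.0249) or without DHT replicate 1 (0.0351). The extremes were MED30 at 0.83 and the kinase CDK8 at -0.70.

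Among other genes that the study's main text names, CDK1 and BIRC5 were higher with DHT and are described with the cell-cycle genes. SLC7A11, TSC22D3, VEGFA, CPEB4 and CEMIP were higher with enzalutamide. The study's supplement lists further genes raised by enzalutamide. Of these, CD55, COL16A1, FAM131B, CHAC1, TRIB3 and INHBE are described in other paragraphs. SLC7A11, which imports cystine in exchange for glutamate, had 197 and 184 CPM with DHT, 591 and 642 CPM with enzalutamide and 241 and 206 CPM with vehicle. Both enzalutamide libraries were above the DHT and the vehicle libraries, 3.24-fold over DHT (log2 fold change -1.70 ± 0.10 (SE), adjusted p = 4.66e-09, edgeR). TSC22D3, a glucocorticoid-induced leucine zipper gene, had 40.6 and 42.9 CPM with DHT and 98.7 and 101 CPM with enzalutamide. VEGFA, an angiogenic growth factor, had 84.4 and 82.9 CPM with DHT and 138 and 139 CPM with enzalutamide. CPEB4, an RNA-binding protein, had 70.7 and 71.4 CPM with DHT and 105 and 108 CPM with enzalutamide. Enzalutamide was high in both libraries for these genes, by 2.39-fold, 1.66-fold and 1.5-fold. CEMIP, a hyaluronan-binding protein, was near the limit of detection, at 0.329 and 0.127 CPM with DHT and 0.631 and 0.787 CPM with enzalutamide (edgeR adjusted p = 0.00241). Its log2 fold change of -1.53 became -2.44 without DHT replicate 1, a fold 1.88 times as large. LAMP3, a lysosomal membrane protein, had 1 and 5 counts with DHT and 6 and 13 with enzalutamide and was below the filter on low counts. The ratio was 2.96 with enzalutamide high (exact 95% interval 1.14 to 9.07, counting error only), and without DHT replicate 1, where it met the filter, the log2 fold change of LAMP3 was -0.55 (edgeR adjusted p = 0.595).

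**Figure D3:**
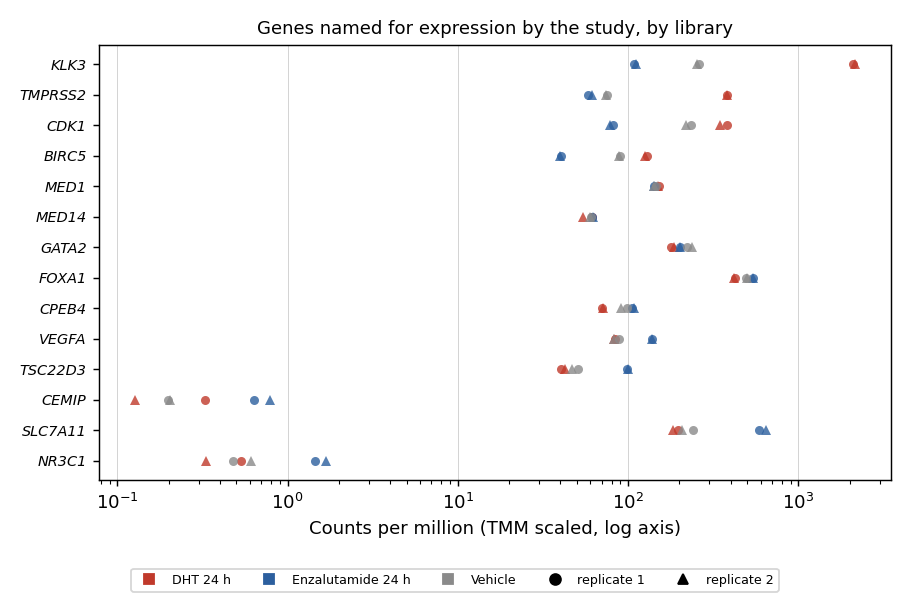
CPM on a log axis of 14 genes that the study's main text names, 1 symbol per library. They are ordered by their log2 fold change of DHT 24 h minus enzalutamide 24 h. KLK3 (top, 4.27) has DHT in red far to the right, and NR3C1 (bottom, -1.81) has enzalutamide in blue to the right.

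All 52 genes of G1/S and DNA replication and all 52 of mitosis were tested and were higher with DHT, and 48 and 50 of them by over 2-fold, against 5.46% of all tested genes. Their median log2 fold changes were 1.94 and 1.80, and the counts of passing members were the same under all 12 alternatives, among them the comparison without DHT replicate 1. E2F1, which activates S-phase genes, had 77.7 and 82.2 CPM with DHT, 14.5 and 12.6 CPM with enzalutamide and 38.2 and 38.4 CPM with vehicle. E2F8, an atypical E2F repressor, had 27.7 and 26.4 CPM with DHT and 3.14 and 3.05 CPM with enzalutamide. MCM2, a subunit of the replicative helicase, had 227 and 235 CPM with DHT and 53.4 and 46.8 CPM with enzalutamide. For each of the 3 the DHT libraries were high and the enzalutamide libraries low, 5.90-fold, 8.76-fold and 4.6-fold apart (edgeR adjusted p = 2.12e-12, 1.32e-12 and 1.49e-12). CDK1, the kinase that drives entry into mitosis, had 381 and 346 CPM with DHT, 82.1 and 78.6 CPM with enzalutamide and 234 and 218 CPM with vehicle. AURKB, the chromosomal passenger kinase, had 35.6 and 35.1 CPM with DHT and 6.39 and 6.51 CPM with enzalutamide. BIRC5 (survivin), of the same passenger complex, had 129 and 126 CPM with DHT and 40.5 and 39.8 CPM with enzalutamide. The DHT libraries were again the higher ones, by 4.53-fold, 5.48-fold and 3.17-fold. MKI67, a marker of cycling cells, stood at 253 and 278 CPM with DHT and 64.6 and 67.3 CPM with enzalutamide (log2 fold change 2.01 ± 0.0786 (SE), adjusted p = 9.42e-11, edgeR).

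Promoters of a gene from each block are shown because the members moved together and the blocks are known for different motifs, the E2F site in replication genes and the CCAAT box in mitotic genes. Each runs from 250 bases before to 50 after the RefSeq start (GRCh38.p14), with matches in capitals. E2F2 (an activator E2F, chr1:23531184-23531483 on the minus strand) was the replication gene with the largest difference that held TTTNNCGC, at 3 places of which the last overlap each other on opposite strands. AURKB (chr17:8210176-8210475 on the minus strand) was the mitotic gene with the largest difference that held CCAAT, here as its reverse complement.
E2F2: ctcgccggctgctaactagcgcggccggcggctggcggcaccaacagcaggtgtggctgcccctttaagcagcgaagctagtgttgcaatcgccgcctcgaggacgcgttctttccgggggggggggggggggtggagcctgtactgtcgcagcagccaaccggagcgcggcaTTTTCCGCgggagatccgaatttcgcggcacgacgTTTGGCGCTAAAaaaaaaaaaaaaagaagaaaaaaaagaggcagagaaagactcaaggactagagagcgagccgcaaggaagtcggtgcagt
AURKB: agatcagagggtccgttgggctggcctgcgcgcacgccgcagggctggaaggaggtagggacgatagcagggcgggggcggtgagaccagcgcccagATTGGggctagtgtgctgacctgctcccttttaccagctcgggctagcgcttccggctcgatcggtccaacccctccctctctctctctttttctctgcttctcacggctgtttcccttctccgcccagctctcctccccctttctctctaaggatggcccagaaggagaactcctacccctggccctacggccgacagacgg
TTTNNCGC was found on either strand in 24 of 42 replication genes with a promoter at hand (57.1%), in 6 of 45 mitotic genes (13.3%) and in 6.90% of all promoters. CCAAT was found in 34 of the 45 mitotic genes (75.6%), in 25 of the 42 replication genes (59.5%) and in 35.7% of all promoters. It was also in 26 of 32 ER chaperones and ER-associated degradation genes with a promoter at hand (81.2%), so its share is not particular to the mitotic list. E2F2 itself stood at 25.2 and 26 CPM with DHT and 3.81 and 4.09 CPM with enzalutamide, 6.48-fold apart.

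Homologous recombination genes, which repair breaks in replicated DNA, were mostly higher with DHT as well. Of 24 members 20 (83.3%, against 31.3% of all tested genes) were higher, 15 of them by over 2-fold (62.5%, against 5.46%). The median log2 fold change was 1.90. BRCA1, which loads the repair machinery, had 135 and 126 CPM with DHT and 25.8 and 26 CPM with enzalutamide. EXO1, a nuclease that resects DNA ends, had 43.5 and 40.9 CPM with DHT and 6.11 and 5.79 CPM with enzalutamide. DHT libraries were high for these genes by 5.04-fold and 7.10-fold. By the edgeR fit with TMM the only lower member to pass was the damage kinase ATM (-0.28, edgeR adjusted p = 0.0234), which missed the threshold with DESeq2 (0.116) and without DHT replicate 1 (0.142), DHT replicate 2 (0.0572) or enzalutamide replicate 2 (0.161). With library size alone RAD50, a subunit of the complex that senses breaks, was a further lower member, making 2 (named after its value was seen).

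Regulators of cell-cycle entry were divided. Of 12 CDK inhibitors, D-type cyclins and their kinases 11 were tested. With DHT 6 (54.5%) were higher and 4 (36.4%) lower, against 31.3% and 33.6% of all tested genes. The list's median log2 fold change was 0.17. CDKN1A (p21) had 77.5 and 77.2 CPM with DHT and 103 and 101 CPM with enzalutamide. CDKN1B (p27) had 77.1 and 77.1 CPM with DHT and 99.4 and 102 CPM with enzalutamide. Both inhibitors were lower in the DHT libraries, by 1.32-fold and 1.31-fold (edgeR adjusted p = 4.89e-07 and 6.79e-07). The INK4 inhibitors differed in direction, with CDKN2B at a log2 fold change of -1.58 and CDKN2C at 1.38. CCND1 (cyclin D1) had 389.7 and 393 CPM with DHT and 349 and 346 CPM with enzalutamide, a difference of 1.13-fold.

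Targets of ATF4, the transcription factor of the integrated stress response and of amino acid shortage, were mostly higher with enzalutamide. The list also holds ATF4 itself (log2 fold change -0.90), which is counted among its members. All 40 members were tested, 37 (92.5%, against 33.6% of all tested genes) were lower and 2 higher with DHT (38 and 1 with library size alone, and 36 and 2 without DHT replicate 1), and 16 of the lower ones by over 2-fold (40.0%, against 6.06%), with a median log2 fold change of -0.90. CHAC1, which degrades glutathione, had 7.26 and 8.79 CPM with DHT, 35.8 and 34.8 CPM with enzalutamide and 12.9 and 12.6 CPM with vehicle. ASNS, asparagine synthetase, had 181 and 166 CPM with DHT, 443 and 454 CPM with enzalutamide and 256 and 237 CPM with vehicle. TRIB3, a pseudokinase that restrains ATF4, had 78.0 and 82.3 CPM with DHT, 156 and 160.2 CPM with enzalutamide and 74.9 and 76.6 CPM with vehicle. In each case both enzalutamide libraries were above the DHT and the vehicle libraries, and above DHT by 4.44-fold, 2.58-fold and 1.97-fold (edgeR adjusted p = 7.34e-11, 3.33e-11 and 1.01e-10). INHBE, an inhibin beta subunit, had the largest fall with DHT (-2.50 ± 0.35) at under 1 CPM in each library. ALDH18A1, an enzyme of proline synthesis, had the larger of the 2 rises (0.37).

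The CHAC1 promoter is shown as that of the ATF4 target with the largest difference that held TGATGNAA, the core of the amino acid response site. It spans chr15:40953221-40953520 on the plus strand (GRCh38.p14, RefSeq), and the match, in capitals, is on the opposite strand and begins at position -209 relative to the start.
CHAC1: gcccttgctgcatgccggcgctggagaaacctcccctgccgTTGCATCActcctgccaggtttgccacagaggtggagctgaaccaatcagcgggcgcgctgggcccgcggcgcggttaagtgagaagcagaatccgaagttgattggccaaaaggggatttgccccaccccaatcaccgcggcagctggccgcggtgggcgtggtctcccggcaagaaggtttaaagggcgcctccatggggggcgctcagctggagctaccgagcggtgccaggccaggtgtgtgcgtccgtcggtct
TGATGNAA was found on either strand in 7 of 32 members of the ATF4 list with a promoter at hand (21.9%). It was in 6 of 16 aminoacyl-tRNA synthetases (37.5%) and in 3.67% of all promoters. A match is a description of the sequence and was not tied to binding.

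Aminoacyl-tRNA synthetases, which charge tRNAs for translation, were divided. Of 20, 12 (60.0%) were lower and 7 (35%) higher with DHT, against 33.6% and 31.3% of all tested genes. CARS, the cysteinyl enzyme, had 69.3 and 64.9 CPM with DHT and 122 and 121 CPM with enzalutamide. FARSB, a phenylalanyl subunit, had 212 and 198 CPM with DHT and 109 and 106 CPM with enzalutamide. Enzalutamide was high for CARS and DHT for FARSB, in both libraries. The 24 tested members of the list for NRF2, the antioxidant factor, were targets and its own gene NFE2L2. Of these, 9 were higher and 9 lower (37.5% each way, against 31.3% and 33.6% of all tested genes). Their median log2 fold change was -0.05, with extremes at SLC7A11 and at glutathione reductase (GSR, 0.86). Under library size alone these counts were 7 and 11. The 37 ER chaperones and ER-associated degradation genes were 18 (48.6%) higher and 11 (29.7%) lower, against 31.3% and 33.6% of all tested genes. These ER counts were 17 and 16 under library size alone, 19 and 9 with RLE factors and 18 and 9 with DESeq2. DERL3, a derlin of the ER degradation channel, was at 3.38 and 3.21 CPM with DHT and 0.789 and 1.03 CPM with enzalutamide. HERPUD1, which assembles that machinery, was at 87.7 and 82.1 CPM with DHT and 153 and 158 CPM with enzalutamide. DERL3 was the higher with DHT by 3.63-fold and HERPUD1 the lower by 1.83-fold.

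Most genes of lipid synthesis were higher with DHT. Of 28 genes of cholesterol synthesis and uptake 27 were tested, 24 (88.9%, against 31.3% of all tested genes) higher, 13 of them by over 2-fold (48.1%, against 5.46%), and 2 lower, with a median log2 fold change of 0.99. INSIG2, which retains the sterol sensor in the ER, was the largest fall (-0.93). Of 19 genes of fatty acid synthesis and elongation 15 (78.9%) were higher, 9 by over 2-fold (47.4%), and 3 lower, with a median of 0.90. FASN, fatty acid synthase, had 2439.6 and 2708 CPM with DHT and 820.1 and 822 CPM with enzalutamide. ELOVL7, an elongase, had 86.8 and 81.6 CPM with DHT and 19.0 and 19.4 CPM with enzalutamide. These were 3.14-fold and 4.39-fold higher with DHT, whereas the acyl-CoA synthetase ACSL4 was lower (-1.01).

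**Figure D4:**
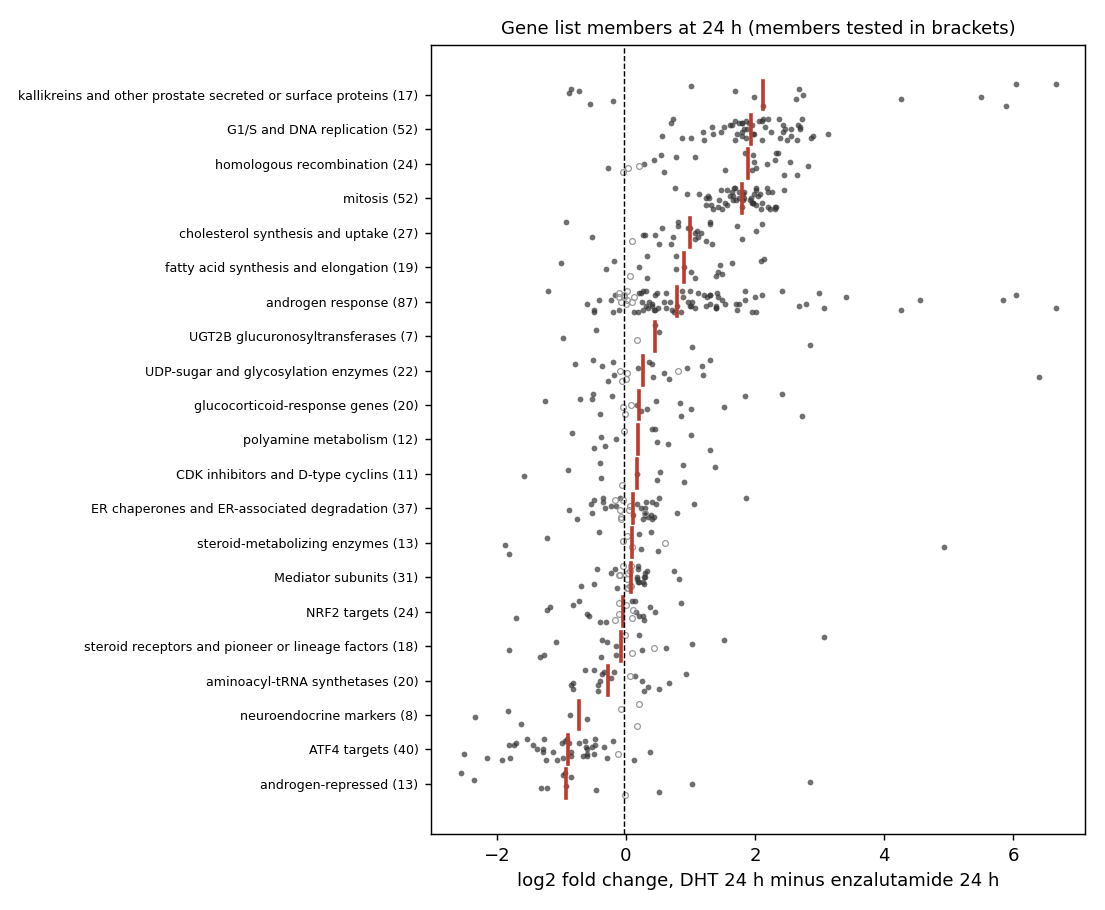
Log2 fold changes of DHT 24 h minus enzalutamide 24 h for the tested members of 21 gene lists, ordered by list median (red bars), with filled points for members with an adjusted p below 0.05, open points for the others and a dashed line at the median of all tested genes (-0.03). The G1/S and mitosis lists lie wholly to the right of that line, and the ATF4 targets lie mostly to its left.

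The comparison at 4 h shares no library with that at 24 h. There the DHT columns carry one prefix and the enzalutamide columns another. Ligand and prefix thus cannot be told apart at 4 h, nor in the change from 4 h to 24 h. The 3 vehicle columns numbered replicate 1 carry different prefixes. They differed from each other by a mean chi-square per gene of 1.51 to 1.54, and from vehicle replicate 2 by 3.42 to 3.59. The part of the prefix in the ligand differences was not tested. At 4 h 189 genes (1.22%) were called by the same thresholds. Of these, 138 were called at 24 h in the same direction and 2 in the opposite one, which together are 74.1% of the 4 h calls and 7.81% of the 24 h calls. The median absolute log2 fold change over all tested genes was 0.107 at 4 h and 0.330 at 24 h. The change of the difference from 4 h to 24 h, tested as an interaction, passed for 7150 genes (46.0%), 3661 (23.5%) in the positive and 3489 (22.4%) in the negative direction. Negative changes were the more numerous with library size alone (3111 positive and 4192 negative) and with no filter (3708 and 3774), and DESeq2 gave 3370 and 2604.

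Gene groups are given here by their values at each time. All 52 replication genes and all 52 mitosis genes passed with a positive change, and the lists' median log2 fold changes at 4 h were 0.10 and 0.05. At 4 h itself 16 of the replication genes and 7 of the mitosis genes were higher with DHT and 1 mitosis gene (NCAPD2, named after its value was seen) was lower by an adjusted p below 0.05 (edgeR), against 8.49% and 7.28% of all tested genes. CDK1 stood at 0.17 at 4 h and 2.18 at 24 h on the log2 scale (change 2.01, edgeR adjusted p = 3.60e-10). TMPRSS2 differed by 2.64 at 4 h and 2.68 at 24 h, and its change of 0.04 did not pass (adjusted p = 0.545). KLK3 differed by 1.57 at 4 h and 4.27 at 24 h (change 2.70, adjusted p = 4.79e-11). SGK1, a kinase induced by steroids, had its larger difference at the earlier time, with 3.33 at 4 h and 1.01 at 24 h (change -2.32, adjusted p = 1.94e-05). Of the 40 members of the ATF4 list, 33 were lower with DHT at 4 h by an adjusted p below 0.05 (edgeR). This stands against 7.28% of all tested genes lower and 8.49% higher. The other members did not pass, and the list's median was -0.62. CHAC1 stood at -1.86 and -2.15 at the earlier and later time, and its change did not pass (adjusted p = 0.0547), while NR3C1 stood at -1.55 and -1.81 (adjusted p = 0.563).

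Among genes that reached an average log2 CPM of 1, the 5 largest positive changes were those of ST6GALNAC1 (4.27), LINC01297 (3.56), TRPM8 (3.55), MYBPC1 (3.52) and TM4SF1 (3.46). TM4SF1, a small membrane protein of tumour cells, had 45.2 and 42.8 CPM with DHT and 2.56 and 2.30 CPM with enzalutamide at 24 h, so that DHT was 18.1-fold the higher. The 5 largest negative changes were those of COL16A1 (-3.20), MATN2 (-3.16), FAM131B (-2.94), VWA2 (-2.83) and GAGE2A (-2.82). GAGE2A, a cancer-testis antigen with near-identical copies that make its counts uncertain, had 0.896 and 0.816 CPM with DHT and 2.76 and 4.86 CPM with enzalutamide, and 3.58 and 8.15 CPM with vehicle. The vehicle libraries of GAGE2A differed from each other by more than the DHT or the enzalutamide libraries did.

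**Figure D5:**
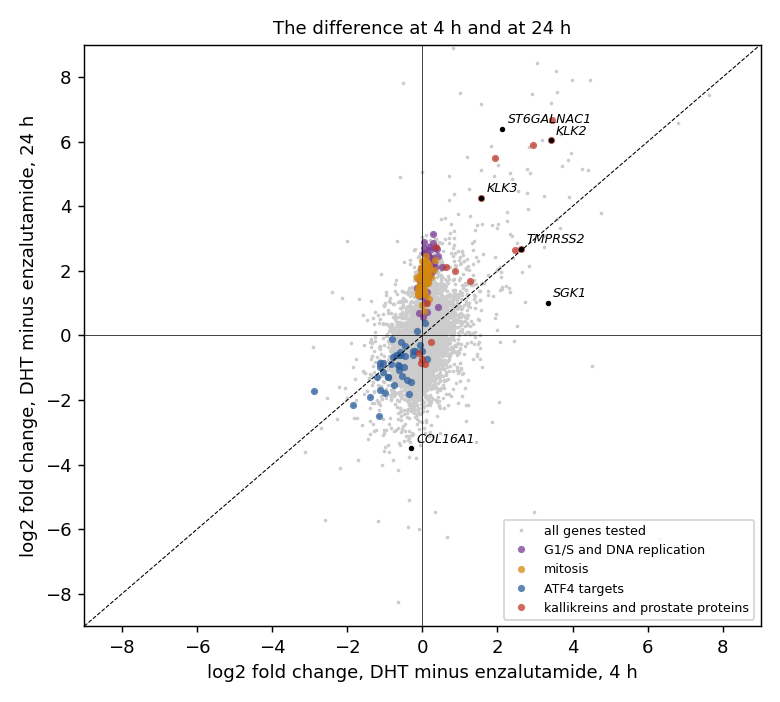
The log2 fold change of DHT minus enzalutamide at 4 h (x axis) and at 24 h (y axis) for 15555 tested genes in grey, with members of 4 gene lists in colour and the dashed line where both are equal. Replication and mitosis genes have medians of 0.10 and 0.05 at 4 h and lie above 0 at 24 h, TMPRSS2 lies close to the line at 2.64 and 2.68, and SGK1 lies below it.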

How the data were processed

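Estimated counts per gene were deposited by the authors, who aligned reads with TopHat and estimated gene counts with the default settings of Partek Genomics Suite. The submitters' processing notes name hg19, and no annotation version is given in the sources used here. These counts are not normalized and were rounded to whole numbers. Unused columns of values in the ligand and vehicle tables numbered 0, and the tables of the siRNA experiment were not used here. Vehicle columns with the same replicate number were summed, and genes absent from the vehicle table were set to 0 there.

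All 10 libraries in 5 conditions were fitted with edgeR 4.0.16 in R 4.3.3 (TMM, default filter on low counts, quasi-likelihood F test, 5 residual degrees of freedom), and p-values were adjusted by Benjamini-Hochberg over 15555 genes. The fit was tested on simulated counts. DESeq2 1.42.0, RLE factors, library size alone, other filters and library sets, a replicate block, other thresholds and leaving out each 24 h library were alternatives. Named genes include the 12 largest rises and falls among called genes (no overlap between ligands, average log2 CPM of 1 or more). The 5 largest changes from 4 h each way and genes that the study's main text names were added. So were members of 21 gene lists, with the largest passing member of each list in each direction. The members and lists were chosen with earlier results of these data known. Promoter sequences are from RefSeq (GRCh38.p14) and were matched by symbol. Some genes are not reported here.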

Additional observations from a re-analysis of the deposited data

Results flagged for a closer look

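The difference between DHT and enzalutamide changed between 4 h and 24 h, by the interaction test of edgeR, for 7150 of 15555 genes (46.0%). It also changed for most genes named here. Many of these were chosen by a large difference at 24 h or by the change itself, so this follows in part from the choice. Values are the log2 difference at 24 h minus that at 4 h, so a positive value means that DHT gained on enzalutamide. Each has an adjusted p below 0.05. The DHT and the enzalutamide libraries of 4 h carry different column prefixes, so prefix and ligand cannot be told apart at that time.

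On the lists of androgen response and of prostate secreted or surface proteins, members higher with DHT had changes of 2.62 for KLK2, 2.93 for CHRNA2, 3.55 for TRPM8, 2.69 for HPGD, 2.70 for KLK3, 3.22 for STEAP4, 0.99 for FKBP5 and 0.30 for UAP1, and members lower with DHT had -0.95 for STEAP2, -0.82 for FOLH1 and -1.13 for HSD17B14. Other genes among the largest rises or positive changes had 4.27 for ST6GALNAC1, 2.45 for F5, 3.31 for ADAM7, 3.52 for MYBPC1 and 3.46 for TM4SF1. For the uncertain or non-coding TRIM49D1, ZNF812P and LINC01297 the changes were 2.53 for TRIM49D1, 3.28 for ZNF812P and 3.56 for LINC01297. The largest falls or negative changes had -2.56 for CD55, -3.20 for COL16A1, -2.94 for FAM131B, -3.16 for MATN2, -2.83 for VWA2, -2.68 for KCNU1, -2.79 for MAN1A1, -2.79 for MCTP1, -1.65 for ADM, -2.24 for PLD1, -2.37 for SLC6A20, -2.60 for SI and -2.82 for GAGE2A. The androgen-repressed list had -1.69 for OPRK1 and -1.06 for UGT2B15, and UGT2B28 and CYP11A1 had 2.36 for UGT2B28 and 4.22 for CYP11A1, against -1.75 for AKR1C3.

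Pioneer factor and Mediator genes changed by -0.22 for GATA2, -0.17 for FOXA1, 0.15 for MED1 and 1.16 for MED30, and SGK1 by -2.32. Cell-cycle and repair genes changed by 2.01 for CDK1, 1.59 for BIRC5, 2.36 for AURKB, 1.97 for MKI67, 2.10 for MCM2, 2.52 for E2F1, 2.64 for E2F2, 2.84 for E2F8, 2.64 for EXO1, 2.32 for BRCA1 and 1.32 for CDKN2C, and regulators of entry by -1.08 for CDKN2B and -0.27 for CCND1. Genes of the ATF4, tRNA synthetase, NRF2 and ER lists changed by -0.56 for SLC7A11, -0.86 for VEGFA, -0.96 for ASNS, -1.35 for INHBE, -0.20 for CARS and -0.19 for HERPUD1, and in the positive direction by 0.16 for TRIB3, 0.31 for ALDH18A1, 0.80 for FARSB, 0.76 for GSR and 1.66 for DERL3. Lipid genes changed by 1.65 for FASN, 1.24 for ELOVL7, -0.48 for INSIG2 and -0.87 for ACSL4, and polyamine and sugar genes by 1.15 for SMS, -0.84 for SMOX, -0.61 for FUT8 and -0.23 for UGDH.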

How the results depend on the processing

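Calls at 24 h numbered 1793 and ranged from 1269 (stricter filter, fewer genes tested) to 1951 (no filter) over other scalings, filters, tools and library sets. With the fold itself tested against 2, 892 were called (570 higher and 322 lower), fewer by construction. The split was 850 higher and 943 lower, and 780 and 1079 with library size alone, 809 and 740 with DESeq2 and 676 and 593 with the stricter filter. Leaving out 1 library of 24 h, where the lone library is assumed to vary like the other conditions, gave 1702 to 1805 calls, 8603 to 8982 passes of the adjusted p and 5970 to 6346 changes from 4 h. The replicate block gave 1798 calls, 9875 passes and 6892 changes. Same-numbered libraries of DHT and enzalutamide at 24 h did not deviate together (correlation across genes -0.043), and the block took away the call of no named gene.

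Of 88 named genes tested, 84 kept their fold within 1.5 times under the alternatives that tested them. Besides SLC6A20 and CEMIP, SNAI2 rose from 2.73 to 3.51 without enzalutamide replicate 2, and POU3F2 went from -2.33 to -1.42 without DHT replicate 1 (adjusted p = 0.104) and to -3.75 without DHT replicate 2. MED1 passed under 3 alternatives and MED14 under 2. Depth limits genes at a few counts, such as STEAP4, CYP11A1, AKR1C3 and LAMP3, whose intervals are wide.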

Other observations

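Of 20 glucocorticoid-response genes, 11 (55.0%) were higher and 6 (30%) lower with DHT, against 31.3% and 33.6% of all tested genes, with a median log2 fold change of 0.20 against -0.03 over all tested genes. SNAI2, a zinc finger repressor of epithelial genes, was low throughout, with 1.10 and 1.20 CPM with DHT and 0.0986 and 0.242 CPM with enzalutamide (log2 fold change 2.73, and 3.51 without enzalutamide replicate 2), and the largest fall was that of TSC22D3. DHT was thus the high group for FKBP5 and SNAI2 and the low group for TSC22D3.

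Of 12 genes of polyamine metabolism 6 (50.0%) were higher and 5 (41.7%) lower, against 31.3% and 33.6% of all tested genes. SMS, spermine synthase, had 228 and 222 CPM with DHT and 91.1 and 91.7 CPM with enzalutamide. SMOX, which oxidizes spermine, had 3.26 and 3.24 CPM with DHT and 5.80 and 5.83 CPM with enzalutamide. The synthase was 2.46-fold higher and the oxidase 1.79-fold lower with DHT (edgeR adjusted p = 2.47e-12 and 4.34e-05). Of 22 UDP-sugar and glycosylation enzymes 11 (50.0%) were higher and 6 (27.3%) lower, against 31.3% and 33.6% of all tested genes, with a median of 0.27. UAP1, which makes UDP-N-acetylglucosamine, had 487 and 457 CPM with DHT and 195 and 188 CPM with enzalutamide. FUT8, which adds core fucose, had 21.3 and 19.6 CPM with DHT and 35.9 and 35.2 CPM with enzalutamide. UGDH, which supplies glucuronic acid, had 94.8 and 94.1 CPM with DHT and 105 and 109 CPM with enzalutamide. UAP1 was higher with DHT, and FUT8 and UGDH were lower, by 1.73-fold and 1.14-fold.

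Only 8 of 18 neuroendocrine markers had enough counts to be tested. Of these, 0 were higher and 5 (62.5%) lower with DHT by edgeR, against 31.3% and 33.6% of all tested genes. The count of higher members was 0 by edgeR at an unadjusted p below 0.05 and 0 by DESeq2, and that of lower members was 3 with the stricter filter. POU3F2, a neural transcription factor, had the largest fall, from 1 and 4 counts with DHT against 15 and 13 with enzalutamide, a ratio of 5.24 with enzalutamide high (exact 95% interval 2.0 to 17.4, counting error only). Its log2 fold change was -1.42 without DHT replicate 1, where it no longer passed (edgeR adjusted p = 0.104), and -3.75 without DHT replicate 2.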
